A study of Homo sapiens with 2 samples.

Results

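Band 8q24.3 is the last band of the long arm of human chromosome 8, from position 139900001 to 146364022 of the hg19 build, and it holds the densest collection of ZMYND8 antibody summits in these data. A summit is the single position of highest signal within a peak of chromatin immunoprecipitation and sequencing (ChIP-seq). Members are all summits of both libraries in that interval, 10 of 385 in the ZMYND8 knockout library and 1236 of 45924 in the parental library. The band was chosen by its number of parental summits per Mb, so that density is given as a description with no test.

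Both libraries came from mammospheres of MDA-MB-231, an established triple-negative breast cancer line, grown as floating spheres in MammoCult medium. The first carried a ZMYND8 knockout and the second was wild type at ZMYND8. The same ZMYND8 antibody was used on both. With 1 library per genotype there is no replicate error and no test between genotypes; clone number is not given in the sources used here. Intervals below are exact 95% intervals for counting error only, and read depth is not given in the sources used here. Scores are the authors' −log10 p or q values from the peak caller and rank summits within their own list.

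ZMYND8 is a chromatin reader that binds acetylated and methylated histone tails through its PHD, bromo and PWWP domains, and it works with corepressors and demethylases at promoters and enhancers of active genes. Light Giemsa bands such as 8q24.3 are as a rule rich in genes and early in replication. In a knockout library the antibody has no intended target, so its summits show where the same antibody and procedure gave a peak without ZMYND8. The knockout itself cannot be checked from summit lists.

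Gene content was read as the order of names in a RefSeq table of assembly GRCh38.p14, without placing any gene on a summit, because no hg19 annotation was used. From KCNK9, a potassium channel gene, to C8orf33 at the chromosome end the table lists 106 protein-coding genes. The first 6 in order, KCNK9, TRAPPC9, CHRAC1, AGO2, a gene known only by its locus number, and PTK2, have a median length of 112.2 kb. AGO2 is the slicer of RNA interference and PTK2 encodes focal adhesion kinase. The 100 genes after PTK2 have a median length of 9.58 kb.

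Those shorter genes include clusters of related function. All 10 listed genes of the LY6 family, small proteins of a shared fold that mostly sit on the cell surface by a lipid anchor, lie between places 16 (PSCA) and 32 (GPIHBP1) of the order. CYP11B1 and CYP11B2, which make cortisol and aldosterone, sit among them at places 26 and 27. Further along follow SCRIB, a cell polarity scaffold, and PLEC, which links cytoskeletal filaments, at places 53 and 57. HSF1, the heat shock factor, and DGAT1, which completes triglycerides, are neighbours at places 72 and 73. All 12 listed zinc finger genes were found, at places 33 to 105, with ZNF16 the last of them.

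In the band the knockout list had 1.55 summits per Mb (0.742 to 2.85) and the parental list 191.2 (180.7 to 202.2). In the rest of the lists these densities were 0.124 and 14.7 per Mb. The band was thus 12.5 times denser than the rest in the knockout list and 13.0 times denser in the parental list. It makes up 0.213% of the length of chromosomes 1 to 22 and X, and held 2.60% of the knockout list (1.25 to 4.72) and 2.69% of the parental list (2.55 to 2.84). The parental list was 123.6 times as long as the knockout list in the band, and 119.2 times outside it. The band's share of the knockout list lay within counting error of its share of the parental list, but 10 summits give a wide interval. The knockout list is no separate check on the choice of the band. Of all its summits, 75.6% lay within 200 bp of a parental summit.

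**Figure D1:**
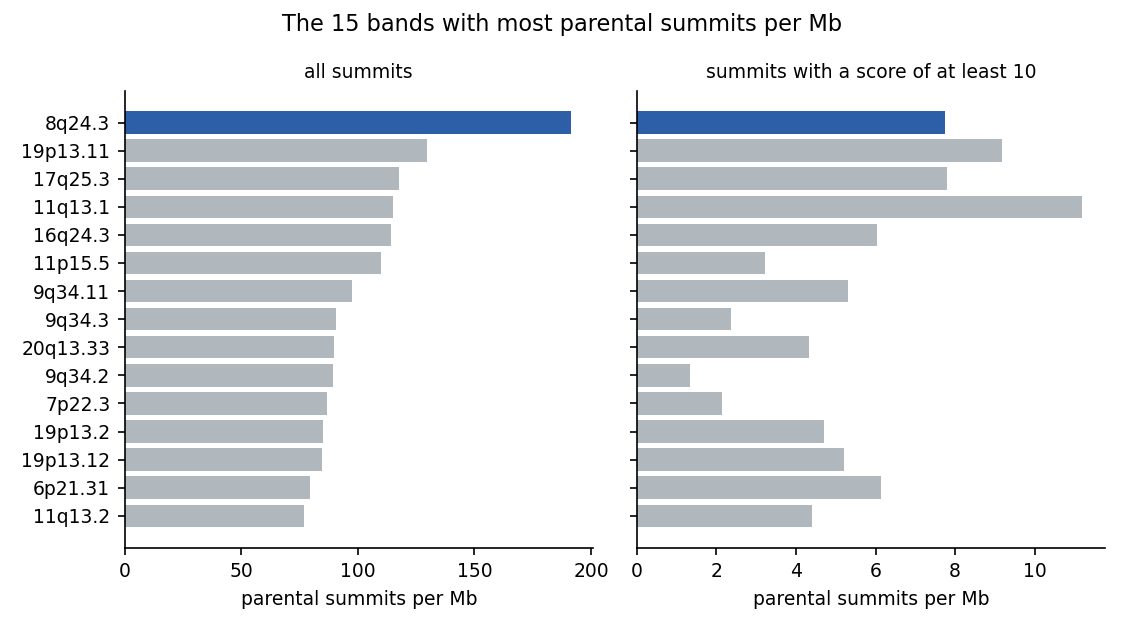
Parental summits per Mb in the 15 hg19 bands with most of them, for all summits (left) and for summits with a score of at least 10 (right), with 8q24.3 in blue. Band 8q24.3 leads on the left with 191.2 per Mb, and on the right stands at 7.74 per Mb, below 11q13.1 with 11.2.

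Among 814 bands of at least 1 Mb, 8q24.3 ranked first in parental summits per Mb and 11th in knockout summits per Mb. The next densest in the parental list were 19p13.11 with 129.7 per Mb, 17q25.3 with 117.6 and 11q13.1 with 115.2, against a median of 10 over all bands. Its knockout density was exceeded most by 15q24.2 with 13.6 per Mb, and 19p13.11 had 2.43. Of the 20 fullest 1 Mb bins counted from each chromosome start, the first 4 were all in 8q24.3, with 315, 288, 241 and 240 parental summits. A bin of 17q followed with 235.

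The ends of the other long arms held fewer parental summits over the same length. The last 6.46 Mb of chromosome 8 held 10 knockout and 1236 parental summits, and the equally long end of chromosome 17 held 6 and 731. The end of chromosome 20 held more knockout summits, 12, with 495 parental ones. Over the other 22 long-arm ends the median was 1 knockout summit and 212.5 parental summits. Short-arm ends were not counted.

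On chromosome 8 the band held many of the summits, but density showed no step at its inner border. The band covers 4.42% of the chromosome and held 10 of its 20 knockout summits (50%, 27.2 to 72.8) and 1236 of its 2682 parental summits (46.1%, 44.2 to 48.0). The neighbouring dark band 8q24.23 had no knockout summit and 25 parental summits, or 7.14 per Mb. The remainder of the long arm had 9 knockout summits and 10.7 parental summits per Mb. That mean covers denser bands, the densest being 8q24.21 with 3 knockout summits and 57.6 parental summits per Mb. The nearest parental summit outside the band lay at 139890149 with a score of 3.25, 9852 bp before the border. The first inside lay at 140030661 with a score of 5.26. The first 0.8 Mb inside held 10 parental summits per Mb (4.32 to 19.7), an interval that holds the density of the remainder of the arm and of 8q24.23.

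Density within the band was far from even. Of its 65 windows of 100 kb, 8 held no parental summit (12.3%), against 61.4% of windows elsewhere. The median window held 17, the quartiles were 4 and 29, and the fullest held 68. At least 20 parental summits were found in 28 windows (43.1%), where 0.813% of all 30376 windows reached that number. Windows with at least 40 numbered 9 in the band and 14 elsewhere. Those with 60 or more numbered 3, all in the band, and the fullest window elsewhere, in 10q22.1, held 57.

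**Figure D2:**
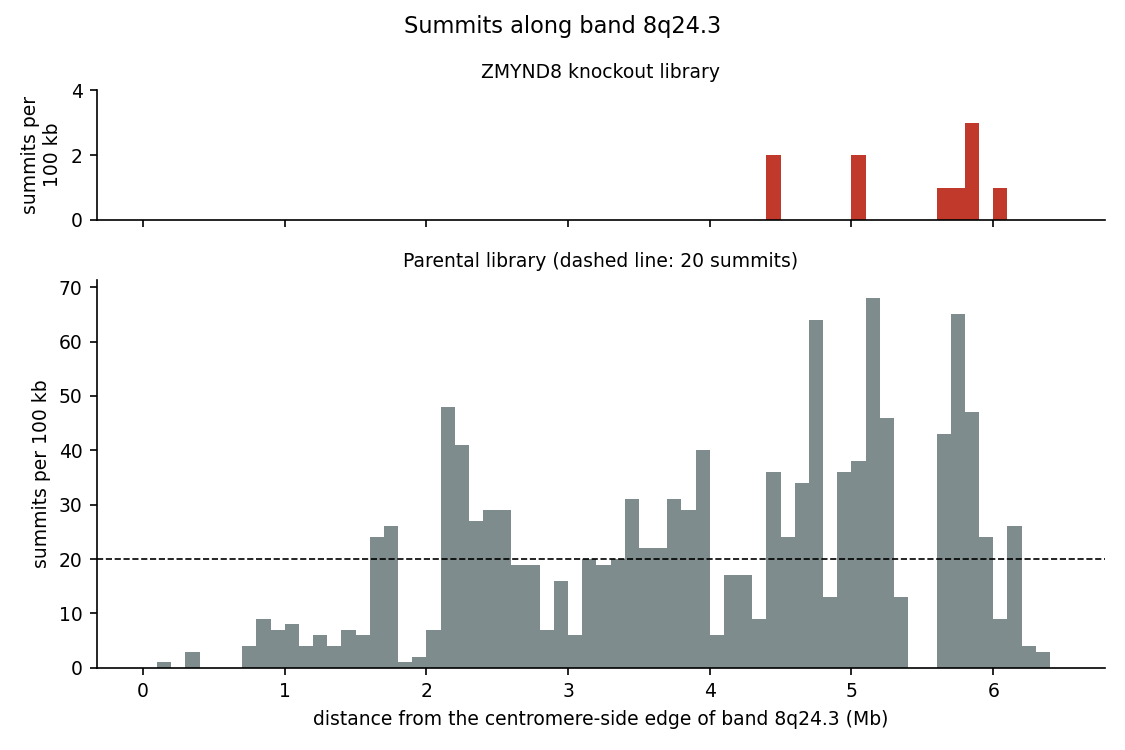
Number of summits per 100 kb window along band 8q24.3 in the ZMYND8 knockout library (top) and the parental library (bottom), against distance in Mb from the centromere-side edge of the band. Parental counts stay below 10 for the first 1.6 Mb, step up to 48 at 2.1 Mb, fall to 0 between 5.4 and 5.6 Mb, and knockout summits begin at 4.46 Mb.

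The 5 fullest windows together held 292 parental summits, 23.6% of the band. The window from 145000001 held 68, the one from 145600001 held 65 and that from 144600001 held 64, and these were the 3 fullest of all windows. The window from 142000001 held 48 and that from 145700001 held 47. In the same order the knockout counts of these windows were 0, 1, 0, 0 and 3. A window's fullness and its median score were only loosely related (Spearman rho 0.19 across 57 windows holding summits, which share 1 library).

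Both edges of the dense part depended on how dense is defined. The dense part was taken as the longest stretch with a running median of at least 5 summits over 5 windows. By this rule it began 0.8 Mb into the band, at 140700001, and ended at 146100000. That stretch held 1221 of the 1236 parental summits, or 226.1 per Mb (213.6 to 239.2), and all 10 knockout summits. The first 0.8 Mb held 8 parental summits. The single step that best separates a sparse from a dense stretch lay instead at 142000001, 2.1 Mb into the band.

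All 10 knockout summits of the band lay on the distal side of that step, as did 1117 of its 1236 parental summits (90.4%). From 142000001 on there were 2.29 knockout summits and 256.0 parental summits per Mb (241.2 to 271.4), and before it no knockout summit and 56.7 parental ones (46.9 to 67.8). The 100 kb just after the step held 48 parental summits and the 100 kb just before it 7. In bins of 10 kb no bin in the last 100 kb before the step had more than 2, and the fourth bin after it had 11. An outlying dense patch lay earlier, between 141500001 and 141700000, where a pair of windows held 50 parental summits with a median score of 4.77. It was followed by 3 windows with 1, 2 and 7.

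With windows of 50 kb the longest stretch ended 5.35 Mb into the band, and 6 of the 10 knockout summits lay beyond it. The region beyond was dense as well: from 145500001 to 145900000 it held 179 parental and 5 knockout summits. With windows of 200 kb the dense part ended at 6.4 Mb, and with a minimum of 3 summits at the end of the chromosome. The last full window, from 146000001, held 26 parental summits with a median score of 6.12, and the windows after it held 4, 3 and 0. The last parental summit lay at 146278033, 85989 bp before the end of the chromosome. Inside the dense part, no summit of either library lay in the 224.5 kb between parental summits at 145278132 and 145502615. On either side of that space the 100 kb windows held 13 and 43. Stretches of hg19 without known sequence were not looked up. Whether reads could map in that space, or at the chromosome end, was not tested. The longest space of the band, 403.0 kb, began at 140267109 in its sparse inner part.

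Neighbouring parental summits lay close together. The median spacing was 1436 bp, with quartiles of 680.5 and 4052.5 bp, against a median of 6190 bp in the rest of the list. Other dense bands had medians of 1528 bp (11q13.1), 1887 bp (17q25.3), 2275 bp (19p13.11), 2422 bp (19p13.2), 3313 bp (11p15.5) and 3634 bp (9q34.3). Of the neighbouring pairs in the band, 60.2% lay within 2 kb, compared with 55.7% in 11q13.1, 51.6% in 17q25.3, 47.6% in 19p13.11, 44.1% in 19p13.2, 41.0% in 11p15.5, 35.9% in 9q34.3 and 36.4% in the rest. The smallest spacing was 213 bp.

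**Figure D3:**
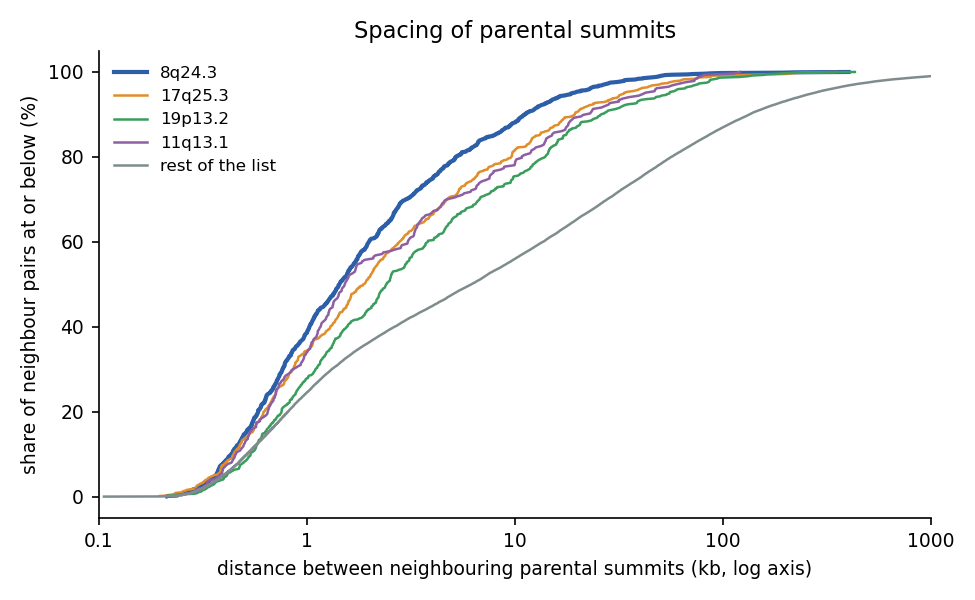
Cumulative share of neighbouring parental summit pairs (vertical axis, %) by the distance between them (kb, log axis) in 8q24.3, 3 like bands and the rest of the list. The 8q24.3 curve is at 60.2% at 2 kb and the curve for the rest of the list at 36.4%.

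Summits strung at spacings of at most 2 kb formed 20 runs of 10 or more in the band, which held 21.4% of its parental summits. In the rest of the list 88 such runs held 2.55%. The band was chosen by its density, and runs were not counted in the like bands. Single summits with no neighbour within 2 kb made up 20.6% in the band and 44.6% in the rest. The longest run held 42 parental summits over 34.6 kb, from 144987479 to 145022076, and its scores had a median of 5.68, with 18.9 the highest. It contained no knockout summit, and the longest run outside the band held 30. The next had 15 parental summits each, from 145056292 to 145066343 with no knockout summit, and from 145731715 to 145743732 with 2.

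Scores in the band had the same middle as in the rest of the parental list and a thinner upper tail. The parental median score was 3.79 in the band and 3.79 in the rest, the same repeated value. Many summits share a score. The 10 commonest values of the parental list made up 52.7% of the band's summits and 56.6% of the rest, so equal medians say little. Scores above 5.68, the 75th percentile of the list, were found for 207 of the 1236 (16.7%, 14.7 to 18.9), below the 20.9% of the whole list. Scores of at least 10 were found for 50 (4.05%, 3.02 to 5.30), where the whole list had 6.27%. In 17q25.3, 19p13.11 and 11q13.1 these shares were 6.64%, 7.08% and 9.72%. In 9q34.3 and 11p15.5 they were 2.60% and 2.92%.

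Counted by strength, the lead of the band shrank. It had 32.0 parental summits above 5.68 per Mb and was first of the 814 bands, ahead of 11q13.1 with 29.2. With scores of at least 10 it had 7.74 per Mb and was seventh, with 15q24.2 first at 15.7, 11q13.1 at 11.2 and 17q25.3 at 7.80. Relative to the rest of the list the band was 10.3 times denser in summits above 5.68 and 8.28 times denser in those of at least 10. Of the summits ranked among the 1000 highest of the parental list, ties included, 20 lay in the band and 1113 outside it. Of those ranked among the 100 highest, 3 lay in the band. The band held 2.69% of the whole parental list.

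High scores were not spread like the summits themselves. In the 1 Mb from 142900001 to 143900000, 22 of 240 parental summits scored above 5.68 (9.17%, 5.83 to 13.5). In the next but one, from 144900001 to 145900000, it was 72 of 344 (20.9%, 16.8 to 25.6). In the last 0.464 Mb it was 18 of 42 (42.9%, 27.7 to 59.0), the largest share among the 7 slices of the band. These slices were set after the data were seen.

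**Figure D4:**
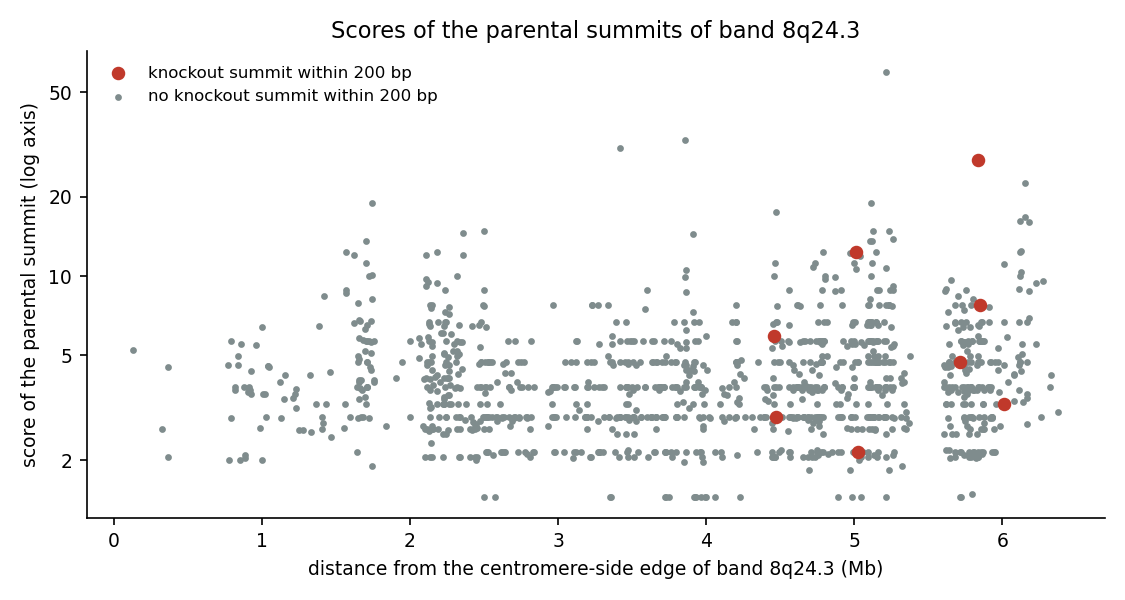
Score of each parental summit of band 8q24.3 (log axis) against its distance in Mb from the centromere-side edge of the band, with summits that have a knockout summit within 200 bp in red and the others in grey. The highest score is 59.7 at 5.22 Mb, and the 8 red summits range from 2.14 to 27.6.

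The highest scoring members stood among other summits. The top one, at 145116028, had a score of 59.7, rank 21 of the parental list, with 10 further parental summits within 5 kb. It was followed by 143757891 with a score of 33.0, 143317281 with 30.6, 145734023 with 27.6 and 146053209 with 22.6. These had 7, 7, 8 and 1 further parental summits within 5 kb. The summit at 143757891 opens a run of 13 in 7.88 kb.

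The other 15 of the 20 highest scored from 13.6 to 19.002. A group of 4 sat in the fullest window, at 145003255, 145012336, 145017522 and 145024747, with scores of 13.6, 18.9, 13.6 and 14.9. Another group of 4, the fifth highest among them, lay towards the distal end, at 146017603, 146052079, 146053209 and 146078109, with scores of 16.2, 16.7, 22.6 and 16.1. Before the step at 142000001 there were 2 of the 20, at 141606917 (13.6) and 141645068 (19.002), both in the outlying patch. The remaining ones lay at 142255662 (14.6), 142402331 (14.9), 143809022 (14.4), 144373769 (17.5), 145133813 (14.9) and 145159662 (13.9). The 20th score was 13.6 and the 21st 12.5.

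Most of these strong sites had no knockout summit nearby, which was also true of the parental list as a whole. Of the 20 highest, 18 lay more than 1000 bp from any knockout summit, and of the whole parental list 98.8% did. The exceptions were 145734023, with a knockout summit at 33 bp, and 144373769, with one at 412 bp. Within 200 bp 1 of the 20 had a knockout summit (5%, 0.127 to 24.9), and of the 1113 parental summits of like rank outside the band 138 did (12.4%, 10.5 to 14.5). These intervals overlap. For the top site at 145116028 the nearest knockout summit lay 193226 bp away.

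All 10 knockout summits lay in the distal part, between 144358692 and 145911959. This span of 1.55 Mb is 24.0% of the band and held 43.4% of its parental summits. The 4.46 Mb of the band up to 1000 bp before the first of them held no knockout summit and 658 parental summits. That stretch was picked after the positions were known. In the 1 Mb from 144900001 to 145900000 there were 7 knockout and 344 parental summits.

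The strongest knockout summit, at 145733990, had a score of 13.3, rank 36 of 385, and lay 33 bp from the parental summit at 145734023, the fourth highest of the band. A second knockout summit at 145734512, with a score of 5.59, had the same nearest parental summit, 489 bp away. The knockout summit at 144911289 scored 7.98, and its parental partner at 73 bp scored 12.4. At 144358692 the knockout score was 3.36 and the parental score 5.91, 121 bp apart. At 145748487 they were 3.23 and 7.77, 155 bp apart.

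The other parental partners had scores from 2.14 to 4.71. The knockout summit at 144373357 (score 6.14) lay 96 bp from a parental summit of 2.93, and that at 145911959 (5.17) lay 90 bp from one of 3.27. At 144922802 the knockout score was 2.48 and the parental score 2.14, 144 bp apart. At 145616227 they were 2.10 and 4.71, 128 bp apart. The summit at 145559919, with a score of 3.73, was 255 bp from the nearest parental summit, which scored 2.52. Knockout scores in the band had a median of 4.45, beside 4.65 in the whole knockout list, and 1 of the 10 reached 10.

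Within 200 bp, 8 of the 10 knockout summits of the band had a parental summit (80.0%, 44.4 to 97.5), and 75.6% of the whole knockout list did. Seen from the parental side, 8 of 1236 summits had a knockout summit within 200 bp (0.647%, 0.280 to 1.27), near the 0.636% of the whole parental list. No knockout summit lay within 1000 bp of 1215 (98.3%), beside 98.8% of the whole list. Among parental summits above 5.68 the partnered share was 1.93% (0.529 to 4.87) in the band and 2.45% (2.15 to 2.78) in the rest. Neither share in the band stood apart from its background beyond counting error.

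The few shared pairs of the band were more widely spaced than those elsewhere, without matching by score. The 8 pairs had a median distance of 108.5 bp, ranging from 33 to 155 bp, and the 283 pairs outside it a median of 37 bp with quartiles of 17 and 81 bp. Within 50 bp there was 1 of 8 pairs in the band (12.5%) and 172 of 283 elsewhere (60.8%). Of the partnered parental summits, 1 of 8 in the band and 138 of 284 outside it ranked among the 1000 highest of the list. Parental summits were also closer to any given position in the band. Positions within 200 bp of a parental summit made up 7.57% of the band, 13.6% of the span with knockout summits, and 0.586% of the rest of the genome. The part of that closeness, or of rank, in the pair distances was not tested.

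The summit count, by whose density the band was chosen, was also set against the number of genes. This is a description, and the like bands were not set against their genes. The 106 protein-coding genes come to 16.4 per Mb of the hg19 band, against 6.58 per Mb over chromosomes 1 to 22 and X and 24.5 on chromosome 19. There were 11.7 parental summits per protein-coding gene in the band and 2.25 in the rest of the genome. Chromosome 19 had 2.06 per gene and chromosome 17 had 2.46. Gene counts come from GRCh38.p14 and summits from hg19, so the ratio for the band is approximate.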

How the data were processed

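ZMYND8 ChIP-seq was run on 1 ZMYND8 knockout and 1 parental library of MDA-MB-231 mammospheres, grouped by the genotype in the labels. The build was hg19 and the tools MACS2 2.0.10, Bowtie2 2.2.3, FastQC 0.11.2 and Picard 1.127, per the submitters' processing notes, which name no roles or settings. Not given in the sources used here are the control, the threshold for calling, the handling of duplicates and the depth. The authors deposited 1 summit list per library, not pooled, with a −log10 p or q value (a p-value or q-value on a −log10 scale; which is not stated) per summit. Calling depends on depth and local copy number, neither of which the lists hold, so list lengths and scores are not read as a change in binding.

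Positions are 1-based hg19. Bands and chromosome lengths came from circlize 0.4.16, and gene names in order from RefSeq (GRCh38.p14), with no gene placed on a summit. Summits within 200 bp were shared. Poisson and Clopper-Pearson intervals are exact. Scores above the 75th percentile exclude that value, which many summits share. Named summits are the 20 highest parental ones, every knockout one with its nearest parental summit, and the 5 fullest windows. Counting steps were tested on simulated lists. For the partner step the simulated parental summits lay much further apart than those of the band, so matching among close neighbours was not tested. The running-median edge was allowed to miss by more than 100 kb. The members, lists and rules were chosen with earlier results of these data known. Software was scipy 1.17.1, numpy 2.4.6, pandas 2.3.3 and matplotlib 3.10.9 under Python 3.11.15.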

Additional observations from a re-analysis of the deposited data

How the results depend on the processing

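No paired analysis was possible because each genotype has 1 library. A value was taken to hold inside its 95% interval, or within 100 kb for an edge. By this rule 5 alternatives held and 22 did not. Densities cannot rise when fewer summits are kept, and partnered shares cannot fall with a wider match. The edges and the band's share of the parental list, which are not bound in this way, moved as well. The knockout density was 0.309 per Mb with the highest 25% of its list and 0.155 with scores of at least 10. The parental density was 32.0 and 7.74 under these settings and 163.2 with summits closer than 500 bp merged, still first of 814 bands when merged. The share of the parental list in the band was 2.16% among scores above the 75th percentile, 2.29% with that value included and 2.54% after merging. The dense part ran from 2.05 to 5.35 Mb into the band with 50 kb windows, from 0.8 to 6.4 Mb with 200 kb windows, from 0.7 Mb to the end with a minimum of 3, from 2.1 to 6.2 Mb with a minimum of 8, and from 2.1 Mb to the end with a single change point. Parental summits with a knockout partner made up 1.70% within 1000 bp, 1.93% above the 75th percentile and 4% (2 of 50) at scores of at least 10. Knockout summits with a parental partner made up 40% within 100 bp and 100% within 500 or 1000 bp. High scoring members made up 6.88% for the highest 10% of the list, 4.05% for scores of at least 10 and 22.2% with the 75th percentile included, beside 10%, 6.27% and 26.1% of the whole list. The settings that include the percentile or start at the change point were chosen after seeing the data. Planned gene and annotation results were not run, since no hg19 annotation was used. Without read depths, list lengths cannot be put on 1 scale.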

Other observations

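Scores in the band were repeated to different degrees along its length. The 10 commonest score values of the parental list accounted for 55.8% of the parental summits from 142000001 on (52.8 to 58.7) and for 23.5% of those before it (16.2 to 32.2). By slices of 1 Mb the share ran from 20.8% in the first to 69.2% in the fourth, and it was 16.7% in the last 0.464 Mb. In the rest of the list it was 56.6%. Other dense bands had 23.4% (19p13.2), 25.4% (19p13.11), 29.3% (17q25.3), 31.2% (11q13.1), 81.5% (11p15.5) and 84.7% (9q34.3).

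With the band, chromosome 8 had 3.75 parental summits per protein-coding gene, the highest of chromosomes 1 to 22 and X. Chromosome 10 followed with 3.71 and chromosome 20 with 3.50. Without the band, chromosome 8 had 2.37, beside 2.25 in the genome outside the band. The band was chosen for its density and no other chromosome had a band left out, so this fall is a description only.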
